A study of Mus musculus with 30 samples.

Results

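Neutrophils and macrophages sorted from the same injured tissue were compared in wild-type mice after experimental stroke, using 7 of the 30 arrays of the series: 4 labelled WT neutrophil and 3 labelled WT macrophage. All 7 came from male C57BL/6 mice of the TREM1+/+ genotype, 8 to 10 weeks old, in which the middle cerebral artery was occluded for 45 min and then reopened. The ischemic hemisphere was taken 48 h after reperfusion from mice perfused with saline, myelin was removed, and the cells were stained for CD45, CD11b and Ly6G. Neutrophils were collected as CD45 high, CD11b positive, Ly6G positive cells and macrophages as CD45 high, CD11b positive, Ly6G negative cells. Both gates therefore hold leukocytes rich in CD45, and the macrophage gate is set by the absence of Ly6G rather than by a macrophage antigen. Neither the purity of the sorts nor the number of mice behind an array is given in the sources used here, although the titles call the arrays biological replicates. For comparison, 5 neutrophil and 6 macrophage arrays of TREM1-/- mice (KO), which carry the same injury, strain, sex, age and gates, were used where stated.

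Neutrophils are short-lived granulocytes that arrive early in an infarct, carry ready-made granules of antimicrobial proteins and proteases, and respond to CXC chemokines through CXCR1 and CXCR2. Macrophages of the injured brain derive largely from CCR2-bearing monocytes, which take up dead cells and myelin, present antigen on MHC class II and live longer. The data ask how far the transcripts of these neighbouring cells differ once both have entered the brain.

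Levels are log2 of the deposited array intensities, and a difference is the mean of the WT neutrophils minus the mean of the WT macrophages, so that 1 unit is a doubling. The error printed after a difference is its standard error (SE) in the model. A transcript cluster (the array's unit for a gene) was called when its Benjamini-Hochberg adjusted p in limma, over all 22103 clusters, was under 0.05, and every adjusted p below is of that kind. The error is the spread between replicate arrays, pooled over all 30 arrays in 6 groups of genotype and cell type. The p-values therefore do not measure the spread of the 7 compared arrays alone. Neutrophils were higher at 6550 clusters (29.6%) and lower at 4852 (22%), and the differences reached 2-fold at 2709 and 3586 of these. The shares of a gene list called higher and lower are to be read against these shares of all clusters. The arrays of one cell type lay entirely above those of the other at 10034 clusters (45.4%). Centring each array on its median turned the balance of the calls, to 3938 higher and 6249 lower, and moved the median difference of all clusters from 0.17 to -0.088, and quantile normalization moved it to 0.02. Many of the higher calls were dim, since both group means lay below the median cluster level of 6.69 at 55% of the higher calls and 8.72% of the lower calls. Among the 11949 brighter clusters 2948 were higher (24.7%) and 4429 lower (37.1%). The plot of all clusters shows the difference against the level.

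**Figure D1:**
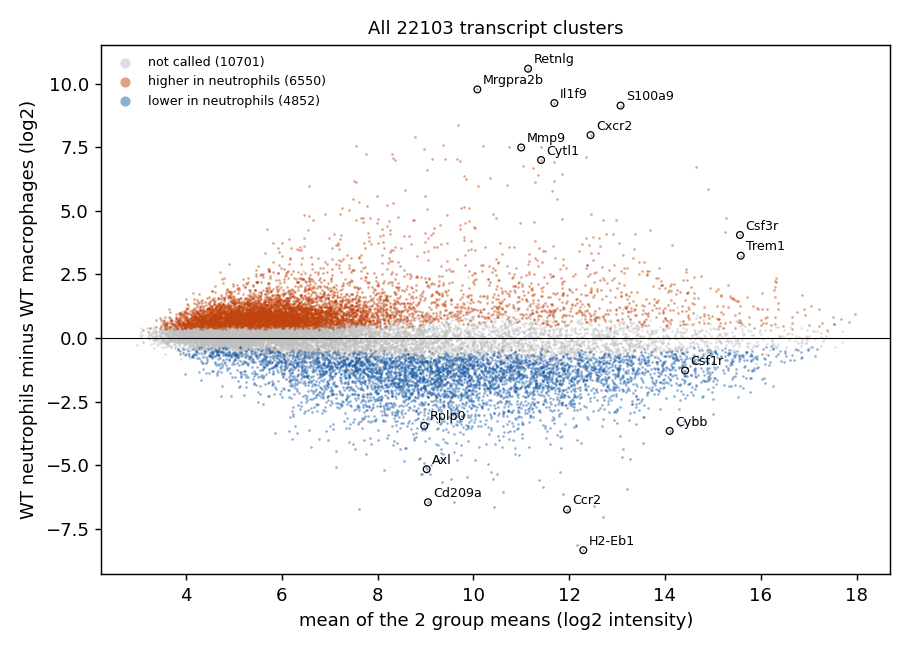
Difference between WT neutrophils (n = 4) and WT macrophages (n = 3) in log2 units against the mean of both group means, 1 point per transcript cluster, coloured by call. The largest differences reached 10.58 for Retnlg above and -8.33 for H2-Eb1 below, and most of the dim clusters that were called lay slightly above 0.

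The WT neutrophil arrays spread more than the WT macrophage arrays, with a median SD over clusters of 0.378 against 0.282. The mean correlation of WT neutrophil 4 with the rest of its group was 0.933, against 0.959 to 0.962 for the other neutrophil arrays and 0.980 to 0.984 for the macrophage arrays. Of 2015 clusters bright in every macrophage and microglia array, 20, 89, 109 and 204 lay more than 3 log2 units lower in WT neutrophils 1 to 4 and 0 did so in the WT macrophages. The median intensity was 97.7 to 108 in the neutrophil arrays and 83.7 to 86 in the macrophage arrays. These properties of the arrays run with cell type, and their part in the differences was not tested. Without WT neutrophil 4 there were 5709 higher and 4583 lower calls.

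The labelled cell types were set against their markers, beginning with the antigens of the sort. Transcripts of Ptprc (CD45) were 15.52, 15.97, 16.21 and 15.85 in WT neutrophils 1 to 4 and 15.46, 15.12 and 15.17 in WT macrophages 1 to 3, a difference of 0.64 ± 0.26 with an adjusted p of 0.0436. Those of Itgam (CD11b) were 14.95, 15.91, 15.78 and 15.43 in WT neutrophils 1 to 4 and 15.37, 15.38 and 15.08 in WT macrophages 1 to 3, a difference of 0.24 ± 0.21 with an adjusted p of 0.348. The groups did not overlap for Ptprc and overlapped for Itgam, and both gates share both of these antigens. The Ptprc call was lost when any array other than WT neutrophil 1 or WT macrophage 1 was left out, and under median centring, where its adjusted p was 0.219. Ly6g, the antigen that separates the gates, was not analysed here.

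Neutrophil markers were higher without exception. Of 29 markers 26 were measured and all 26 were called higher, with a median difference of 6.27, and the groups of arrays did not overlap for any of them. Retnlg, which encodes a resistin-like protein secreted by mouse neutrophils, stood at 15.44, 17.45, 17.23 and 15.60 in WT neutrophils 1 to 4 and 6.17, 6.30 and 5.07 in WT macrophages 1 to 3. Its difference of 10.58 ± 0.80, 1534-fold (adjusted p = 2.36e-11), was the largest of all clusters. S100a9, a subunit of the calcium-binding alarmin calprotectin, stood at 17.34, 17.85, 17.94 and 17.43 in WT neutrophils 1 to 4 and 7.40, 9.92 and 8.19 in WT macrophages 1 to 3. Every neutrophil array was near the top of the scale for S100a9 and the macrophage arrays lay far below, a difference of 9.13 ± 0.87 (adjusted p = 2.51e-09). Its partner S100a8 differed by 6.74 ± 1.09 (adjusted p = 1.29e-05). Cxcr2, the receptor for CXCL1 and CXCL2, stood at 16.38, 16.77, 16.47 and 16.11 in WT neutrophils 1 to 4 and 8.41, 9.56 and 7.40 in WT macrophages 1 to 3, a difference of 7.97 ± 0.35 (adjusted p = 3.58e-16). Csf3r, the receptor for granulocyte colony-stimulating factor, was 17.59, 17.80, 17.51 and 17.46 in WT neutrophils 1 to 4 and 14.02, 13.15 and 13.45 in WT macrophages 1 to 3. It differed by 4.05 ± 0.26 (adjusted p = 8.86e-13), and macrophages also held it well above the median cluster level.

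Several of the highest differences belonged to stefins, small inhibitors of cysteine proteases: Stfa2l1 (8.36), Stfa2 (7.43) and Stfa1 (7.04), together with the cystatin domain gene Cstdc4 (7.51). Stefin genes are near-identical copies of each other, and so are Mrgpra2b (9.77) and its neighbours among the Mas-related receptors of neutrophils, so probes could share signal between copies. Also among the 15 highest were St3gal6 (7.89), a sialyltransferase that builds selectin ligands, Entpd3 (7.58), an enzyme that cleaves extracellular nucleotides, Chil1 (7.56), a chitinase-like protein, Nlrp12 (7.53), an innate immune sensor, and Hcar2 (7.49), the receptor for niacin and beta-hydroxybutyrate. Sycp2 (7.91), a protein of meiotic chromosomes, was among them too.

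Monocyte and macrophage markers were mostly lower in neutrophils. Of 26 measured markers 21 were called lower and 1 higher, with a median difference of -2.24. Ccr2, the receptor that draws monocytes out of marrow and into tissue, was 7.52, 8.75, 9.96 and 8.11 in WT neutrophils 1 to 4 and 15.93, 14.89 and 15.14 in WT macrophages 1 to 3. No neutrophil array reached the lowest macrophage array, and the difference was -6.74 ± 0.69, 107-fold lower (adjusted p = 7.9e-09). Ms4a4c (-5.57), a membrane protein of monocytes, and Klf4 (-4.36), a transcription factor of monocyte development, were lower too. Smaller differences were found for Fcgr1 (-3.17), the high-affinity IgG receptor, Ly6c2 (-2.46), the antigen of inflammatory monocytes, Apoe (-2.32), the lipid carrier, Adgre1 (-2.16), an adhesion receptor of macrophages, and Fn1 (-1.75), fibronectin. Csf1r, the receptor for macrophage colony-stimulating factor, was 14.24, 13.61, 13.33 and 13.95 in WT neutrophils 1 to 4 and 15.01, 14.93 and 15.23 in WT macrophages 1 to 3. Its groups did not overlap, the difference was -1.27 ± 0.21 (adjusted p = 1.28e-05), and the neutrophil arrays too were well above the median cluster level. The member called higher was Cd63 (0.46), a granule and lysosome membrane protein, and that call was lost under median centring (adjusted p = 0.265) and without WT macrophage 1 (adjusted p = 0.0622). In sorted bulk cells, fewer cells of a type and less RNA per cell cannot be told apart.

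**Figure D2:**
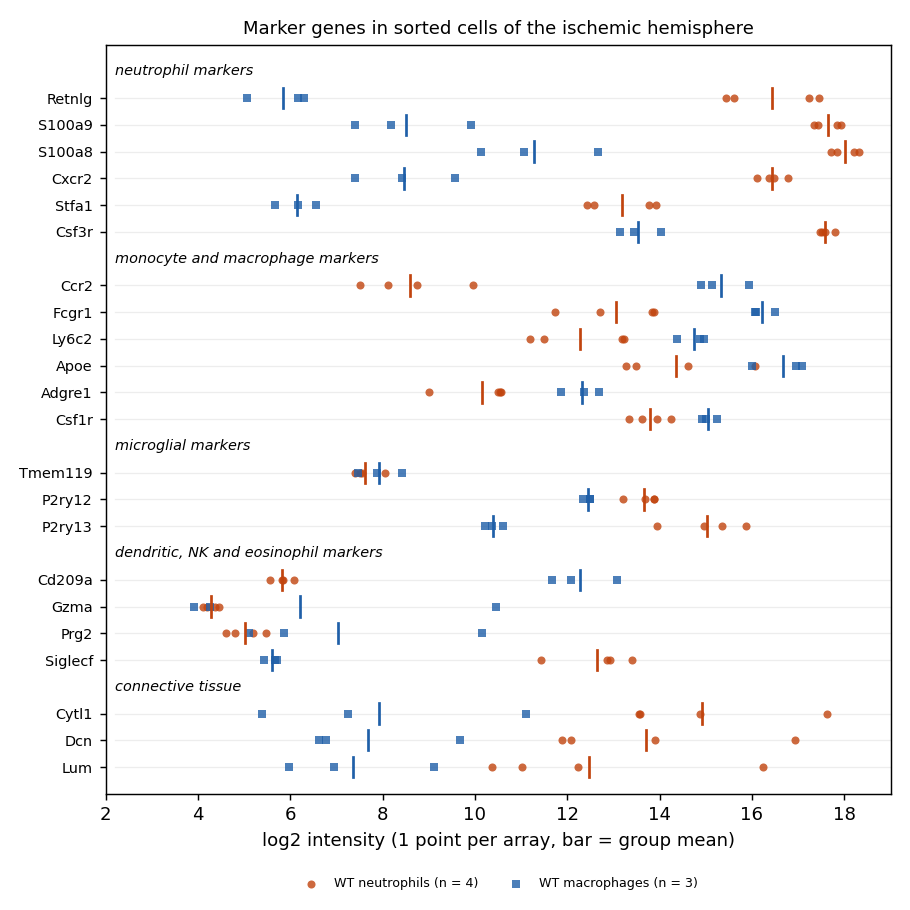
Log2 intensity of marker genes in each WT neutrophil array (circles) and WT macrophage array (squares), with group means as bars. Neutrophil markers such as Retnlg and Cxcr2 separate the groups widely, Csf1r and Csf3r separate them less, Gzma and Prg2 are high in 1 macrophage array, and Cytl1, Dcn and Lum spread within both groups.

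Promoters of some of these genes are shown because C/EBP and PU.1 factors are known to drive granulocyte and monocyte genes. The promoters printed were picked by hand and all hold a match. They therefore do not show how often marker promoters hold one, for which the shares are given below. RefSeq promoters (GRCm38.p6, 250 bases before to 50 after the start) were matched for 15681 of the 19479 measured genes. They were searched on both strands for TTGCNNAA, a C/EBP core, GAGGAAGT, a PU.1 site, TGANTCA, an AP-1 site, and TCACGTGA, a TFEB and TFE3 core. None of the patterns overlaps another in the sequences printed. Capitals mark every match to the C/EBP or PU.1 letters, read 5′ to 3′ on the strand of the gene. Retnlg lies at chr16:48872358-48872657, plus strand, S100a9 at chr3:90695672-90695971, minus strand, Ngp at chr9:110419558-110419857, plus strand, Mmp8 at chr9:7558179-7558478, plus strand and Ly6c2 at chr15:75111922-75112221, minus strand.
Retnlg: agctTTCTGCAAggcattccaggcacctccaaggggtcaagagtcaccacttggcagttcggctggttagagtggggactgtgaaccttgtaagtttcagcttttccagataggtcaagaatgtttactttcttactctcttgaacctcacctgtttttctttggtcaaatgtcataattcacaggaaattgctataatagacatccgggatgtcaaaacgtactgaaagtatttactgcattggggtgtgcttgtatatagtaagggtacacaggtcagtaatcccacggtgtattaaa
S100a9: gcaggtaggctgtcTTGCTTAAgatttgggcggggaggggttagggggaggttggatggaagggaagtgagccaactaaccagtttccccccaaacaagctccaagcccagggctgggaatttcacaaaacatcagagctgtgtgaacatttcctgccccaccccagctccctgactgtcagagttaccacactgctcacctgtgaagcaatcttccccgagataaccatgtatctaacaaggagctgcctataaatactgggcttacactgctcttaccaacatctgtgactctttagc
Ngp: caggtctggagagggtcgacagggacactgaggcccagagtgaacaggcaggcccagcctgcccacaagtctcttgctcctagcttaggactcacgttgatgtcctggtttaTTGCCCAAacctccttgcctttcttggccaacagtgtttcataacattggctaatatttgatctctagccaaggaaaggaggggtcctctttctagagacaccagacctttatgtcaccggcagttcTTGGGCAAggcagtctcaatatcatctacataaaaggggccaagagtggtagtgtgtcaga
Mmp8: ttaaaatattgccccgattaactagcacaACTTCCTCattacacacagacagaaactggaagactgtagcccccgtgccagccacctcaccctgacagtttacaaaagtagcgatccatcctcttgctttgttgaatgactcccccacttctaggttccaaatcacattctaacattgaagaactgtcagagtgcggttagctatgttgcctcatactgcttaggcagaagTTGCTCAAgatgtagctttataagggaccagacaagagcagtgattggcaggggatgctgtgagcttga
Ly6c2: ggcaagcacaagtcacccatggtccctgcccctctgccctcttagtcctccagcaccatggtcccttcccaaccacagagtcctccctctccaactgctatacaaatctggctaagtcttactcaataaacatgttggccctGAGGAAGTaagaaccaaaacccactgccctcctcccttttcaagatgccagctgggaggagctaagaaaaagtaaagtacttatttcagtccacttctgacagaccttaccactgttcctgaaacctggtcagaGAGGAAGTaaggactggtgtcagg
Retnlg and S100a9, with the large differences above, hold 1 C/EBP match each, 246 and 236 bases before the start. Ngp and Mmp8, granule genes described below, hold C/EBP matches 138 and 11 bases and 19 bases before it, and Mmp8 also a PU.1 match at 221. Ly6c2, lower in neutrophils, holds 2 PU.1 matches and no C/EBP match.

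The C/EBP letters were found in 5 of 23 neutrophil marker promoters (21.7%) and in 0 of 21 monocyte and macrophage marker promoters. Of the lists more often lower in neutrophils, lysosomal genes held them in 4 of 21 promoters (19%) and MHC class II genes in 1 of 11. All measured promoters held them at 10.0%, those called higher by 8-fold or more at 15% of 160, and those called lower by 8-fold or more at 5.11% of 235. Over all genes called higher and lower the C/EBP shares were 10.5% and 8.24%. The PU.1 letters were found in 2.5% and 5.96% of the 8-fold sets, in 3.1% and 3.58% of all genes called higher and lower, and in 3.03% of all promoters. They were found in 2 of 23 neutrophil marker promoters and in 2 of 21 monocyte and macrophage marker promoters. Lysosomal gene promoters held the PU.1 letters in 4 of 21 and MHC class II promoters in 0 of 11. AP-1 letters were found in 8.75% and 11.9% of the 8-fold sets, against 7.28% of all promoters, but in 9.06% and 5.23% of all genes called higher and lower, where the order is the opposite. TFEB and TFE3 letters were found in 1.25% and 0% of the 8-fold sets, in 0.679% and 2.04% of all genes called higher and lower, in 1.3% of all promoters and in 2 of 21 lysosomal gene promoters. These shares describe letters in a window and were not tested.

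Lymphocyte markers were mostly dim. Both group means lay below the median cluster level at 11 of 13 T and NK cell genes and 6 of 8 B cell genes. Some genes of these and other cell types followed single arrays. Of 13 T and NK cell genes 3 were higher and 3 lower, and their summed level per array, as the mean over the list, was 4.78 to 5.11 in the neutrophil arrays and 4.75 to 5.97 in the macrophage arrays. WT macrophage 1 was the highest of these. Gzma, a granzyme of NK and cytotoxic T cells, was 4.19, 4.37, 4.11 and 4.45 in WT neutrophils 1 to 4 and 10.45, 3.92 and 4.26 in WT macrophages 1 to 3. Its difference of -1.93 (adjusted p = 0.0356) rested on that array and became 0.19 without it (adjusted p = 0.484), and the call was also lost without WT neutrophil 1, 2 or 3 (adjusted p = 0.0556, 0.0502 and 0.0636). Ncr1, which encodes the NK receptor NKp46, stood at 6.68, 4.91 and 4.26 in the macrophage arrays, and its difference went from -1.16 to -0.46 (adjusted p = 0.216). The same array held Prg2, eosinophil major basic protein, at 10.16, 5.11 and 5.86 for macrophages 1 to 3, and its difference of -2.02 became -0.46 without macrophage 1 (adjusted p = 0.136). The T cell receptor subunit Cd3e (-0.43 ± 0.19) and the B cell genes Cd79a (0.39 ± 0.20) and Ms4a1 (0.30 ± 0.23) were below the median cluster level in both groups. The part of such cells in the macrophage arrays was not tested.

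Dendritic cell genes were lower in neutrophils, with 9 of 15 called lower and 2 higher and a median of -0.85. Cd209a, a lectin of monocyte-derived dendritic cells, was 5.56, 5.84, 5.82 and 6.07 in WT neutrophils 1 to 4 and 12.09, 11.67 and 13.07 in WT macrophages 1 to 3. The groups were far apart, at -6.45 ± 0.39 (adjusted p = 2.51e-13). Flt3 (-1.47), the growth factor receptor of dendritic cells, and Ccr7 (-1.19), the receptor that leads them to lymph nodes, were also lower. The dendritic cell factor Zbtb46 (0.26 ± 0.17) was not called, and the chemokine receptor Xcr1 (0.93) was called higher (adjusted p = 0.00535). Zbtb46 and Xcr1 were below the median cluster level in both groups. The Xcr1 and Ccr7 calls were lost under quantile normalization over all arrays (adjusted p = 0.0744 and 0.0796). Of 12 genes of border-associated macrophages 8 were lower and 1 higher, with a list mean of 8.95 to 9.40 in the neutrophil arrays and 10.15 to 11.32 in the macrophage arrays. They included Siglec1 (-3.25), Clec10a (-2.47) and F13a1 (-3.38), while the defining genes Mrc1 (-1.14 ± 0.67) and Cd163 (-0.65 ± 0.34) were not called.

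Homeostatic microglial genes did not follow the macrophage markers. Of 13 measured members 5 were called higher and 2 lower in neutrophils, with a median difference of 0.72. Tmem119, specific to microglia in the brain, was 7.39, 7.50, 7.55 and 8.05 in WT neutrophils 1 to 4 and 8.42, 7.46 and 7.88 in WT macrophages 1 to 3, against 12 ± 0.68 (SD, n = 6) in the WT microglia of the series, and was not called (-0.29 ± 0.46). P2ry12, a purinergic receptor of microglia and platelets, was higher in neutrophils by 1.22 ± 0.31 (adjusted p = 0.00198), and its relative P2ry13 was 13.94, 15.87, 15.35 and 14.95 in WT neutrophils 1 to 4 and 10.21, 10.61 and 10.38 in WT macrophages 1 to 3. The neutrophil arrays all lay above the macrophage arrays for P2ry13, at 4.63 ± 0.45 (adjusted p = 3.14e-09), and above the mean of the WT microglia, 13.43 ± 0.78 (SD, n = 6). Gpr34 (2.40) was higher too, and Trem2 (-2.68) and Cx3cr1 (-1.47) were lower. The Cx3cr1 call was lost under quantile normalization over all arrays (adjusted p = 0.0622). Of 15 neural genes 5 were called higher, including Mbp (1.26), a myelin protein, and Gfap (0.93), an astrocyte filament protein that stayed below the median cluster level in every array. Of 13 endothelial and pericyte genes 6 were higher and 2 lower (2 higher and 5 lower under median centring), and the junction genes Cdh5 (-0.63 ± 0.36) and Cldn5 (-0.30 ± 0.26) were not called. Of 8 platelet and red cell genes 5 were higher and 0 lower (2 higher and 0 lower under median centring), and the list means were 8.47 to 9.45 in the neutrophil arrays and 8.07 to 8.40 in the macrophage arrays. The part of these cells in the differences was not tested.

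Connective tissue transcripts were higher in the WT neutrophil arrays and highest in WT neutrophil 4. Of 20 measured members 16 were called higher and 0 lower in neutrophils, with a median difference of 1.27, and the list mean was 7.43 to 10.16 in the neutrophil arrays and 5.87 to 6.63 in the macrophage arrays. Cytl1, a secreted protein of cartilage and marrow, was 13.56, 13.58, 14.88 and 17.62 in WT neutrophils 1 to 4 and 7.26, 5.39 and 11.10 in WT macrophages 1 to 3. Dcn, the matrix proteoglycan decorin, was 11.88, 12.08, 13.90 and 16.94 in WT neutrophils 1 to 4 and 6.62, 6.77 and 9.68 in WT macrophages 1 to 3. Lum, the related lumican, was 11.02, 10.36, 12.24 and 16.25 in WT neutrophils 1 to 4 and 6.95, 5.98 and 9.12 in WT macrophages 1 to 3. Within each group the arrays differed by several log2 units, and WT macrophage 3 was the highest of its group for all of these genes. The differences were 7.0 ± 1.36, 6.01 ± 1.11 and 5.12 ± 1.10 (adjusted p = 0.000122, 6.43e-05 and 0.000358), and without WT neutrophil 4 they were 6.09, 4.93 and 3.86. Acan, the cartilage proteoglycan aggrecan, was 7.89, 7.71, 7.88 and 12.56 in WT neutrophils 1 to 4, and its call was lost without the last of these (adjusted p = 0.365). Without that array 11 members of the list were called higher. Sparc, a matrix glycoprotein that microglia also express, was 14.86, 12.21, 13.53 and 16.81 in WT neutrophils 1 to 4 and 7.03, 7.04 and 10.60 in WT macrophages 1 to 3, with WT neutrophil 4 and WT macrophage 3 again the highest of their groups. Whether fragments of other tissue entered the sorts was not tested.

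Granule protein genes differed between granule types. Among azurophil granule proteins, which are transcribed in promyelocytes of the marrow, Mpo (myeloperoxidase, 0.35 ± 0.22), Elane (neutrophil elastase, -0.11 ± 0.30) and Ctsg (cathepsin G, -0.35 ± 0.21) were not called, and Prtn3 (proteinase 3, -1.33) and Ctsc (the protease that activates these enzymes, -2.84) were lower in neutrophils. Of 9 measured members of that list 4 were higher and 2 lower (2 higher and 3 lower under median centring). Specific granule proteins were higher at 10 of 15 members and lower at 3, with a median of 2.61. Lcn2, the iron-binding protein lipocalin 2, was 17.27, 17.75, 17.81 and 17.68 in WT neutrophils 1 to 4 and 12.53, 14.27 and 11.96 in WT macrophages 1 to 3. All neutrophil arrays were at one level for Lcn2, and the difference was 4.71 ± 1.03 (adjusted p = 0.000463). Other specific granule genes depended on 1 array. Ngp, neutrophilic granule protein, was 7.85, 16.07, 10.88 and 7.38 in WT neutrophils 1 to 4 and 5.73, 5.24 and 6.86 in WT macrophages 1 to 3. Ltf, lactoferrin, was 6.10, 12.76, 5.87 and 5.79 in WT neutrophils 1 to 4 and 3.82, 4.29 and 4.59 in WT macrophages 1 to 3. Camp, the cathelicidin, was 5.16, 14.61, 4.97 and 6.35 in WT neutrophils 1 to 4 and 4.82, 4.88 and 5.68 in WT macrophages 1 to 3. WT neutrophil 2 lay far above the other neutrophil arrays for all of these, while the others lay near the macrophage level for Camp. Ngp and Ltf were called (4.60 and 3.40) and Camp was not (2.64 ± 1.58), and without WT neutrophil 2 the differences were 2.76 (adjusted p = 0.0614), 1.69 (adjusted p = 0.00287) and 0.36. The promoters of Ngp and Mmp8 are printed above.

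The specific granule list also holds genes that macrophages share. Cybb, the catalytic subunit of the NADPH oxidase, was 12.60, 14.31, 12.66 and 9.51 in WT neutrophils 1 to 4 and 16.24, 15.59 and 15.94 in WT macrophages 1 to 3, lower in neutrophils by a difference of -3.65 ± 0.55 (adjusted p = 5.03e-06), with WT neutrophil 4 the lowest array. Lyz2 (lysozyme, -1.58) and Cyba (the partner subunit of Cybb, -0.51) were lower as well. Gelatinase granule and secretory vesicle genes were called higher at 4 of 12, and the largest was Mmp9, gelatinase B, at 14.56, 15.06, 15 and 14.34 in WT neutrophils 1 to 4 and 7.31, 7.67 and 6.78 in WT macrophages 1 to 3. Its groups were 7.49 ± 0.39 apart (adjusted p = 7.87e-15). Mmp25 (2.02), a membrane-bound protease of neutrophils, was higher, and Adam8 (0.28 ± 0.42) was not called.

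TREM1, the receptor deleted in the other genotype of the series, amplifies inflammatory signals of myeloid cells through the adaptor TYROBP. Trem1 transcripts were 17.20, 17.51, 17.27 and 16.82 in WT neutrophils 1 to 4 and 14.11, 14.19 and 13.59 in WT macrophages 1 to 3. The neutrophil arrays lay above every macrophage array, a difference of 3.24 ± 0.47, 9.43-fold (adjusted p = 2.72e-06), and the macrophages in turn were above the WT microglia at 9.60 ± 1.02 (SD, n = 6). Pglyrp1 (6.92), which encodes a peptidoglycan-binding protein reported as a TREM1 ligand, was higher in neutrophils. So were the relatives Trem3 (2.16) and Treml2 (2.39), and Trem2, which binds lipids on macrophages and microglia, was lower, at 11.71, 9.82, 9.21 and 8.64 in WT neutrophils 1 to 4 and 12.13, 12.50 and 12.95 in WT macrophages 1 to 3. The Trem2 groups did not overlap, and WT neutrophil 1 came nearest to the macrophage arrays. Of the 8 genes of this list 5 were higher and 1 lower.

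Receptors for chemoattractants lay on both sides. Of 19 measured members 7 were called higher and 6 lower in neutrophils, with a median difference of 0.66. Cxcr1 was higher, as Cxcr2 was (6.61), and Cmklr1 (the chemerin receptor, -3.52), C3ar1 (the receptor of complement C3a, -1.99), P2ry6 (a nucleotide receptor tied to phagocytosis, -2.17) and Cx3cr1 (the fractalkine receptor, -1.47) were lower, as Ccr2 was. The Cx3cr1 call was lost under quantile normalization, as given above. Ccr1 (0.89 ± 0.42), a receptor for CCL3 that both cells use, was not called. The receptors for growth factors showed the same division with Csf3r higher and Csf1r lower, while Csf2ra (-0.42 ± 0.30), a subunit of the receptor for granulocyte-macrophage colony-stimulating factor, was not called, and Il3ra (-2.51) was lower.

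Chemokines themselves also lay on both sides. Of 13 CXC chemokines 4 were higher and 2 lower (1 higher and 3 lower under median centring). Cxcl3, a ligand of CXCR2, was 9.59, 11.48, 11.03 and 9.64 in WT neutrophils 1 to 4 and 7.33, 7.15 and 7.18 in WT macrophages 1 to 3, a difference of 3.21 ± 0.39 (adjusted p = 1.52e-07). Cxcl2, a ligand of the same receptor, was 17.12, 17.83, 17.72 and 17.09 in WT neutrophils 1 to 4 and 14.97, 14.91 and 15.77 in WT macrophages 1 to 3. Its call (2.22, adjusted p = 0.0341) was lost when WT neutrophil 2 or 3 or WT macrophage 1 or 2 was left out (adjusted p = 0.0662, 0.0642, 0.0889 and 0.0913) and under median centring. Cxcl16 (-2.43), a scavenger receptor and chemokine of macrophages, was lower. Of 12 CC chemokines 4 were lower and 1 higher. Ccl7 and Ccl2, which recruit monocytes through CCR2, were lower at -2.90 and -1.63. Ccl3, macrophage inflammatory protein 1 alpha, was 16.22, 16.10, 15.45 and 15.95 in WT neutrophils 1 to 4 and 13.34, 14.04 and 14.50 in WT macrophages 1 to 3 and was the member called higher (1.97 ± 0.51, adjusted p = 0.00222). Ccl4 (1.01 ± 0.47), its close relative, was not called.

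Genes of the interleukin-1 family and of the inflammasome were counted in the same list, which was more often higher than lower in neutrophils. Of 19 measured members of that list 11 were called higher and 5 lower in neutrophils, with a median difference of 1.15. Il1f9, which encodes interleukin-36 gamma, was 15.48, 16.84, 16.60 and 16.30 in WT neutrophils 1 to 4 and 6.81, 8.18 and 6.23 in WT macrophages 1 to 3. Its groups were 9.23 ± 0.43 apart, 602-fold (adjusted p = 9.97e-16). Il1b, interleukin-1 beta, was 17.41, 17.48, 17.54 and 17.56 in WT neutrophils 1 to 4 and 15.82, 14.48 and 15.16 in WT macrophages 1 to 3. The neutrophil arrays lay close together and above every macrophage array, a difference of 2.34 ± 0.48 (adjusted p = 0.000229). Il1r2 (4.15), the decoy receptor, Il1rap (5.79), the co-receptor, and Il1rn (2.62), the receptor antagonist, were also higher. Il1a was called (1.76), a call lost without WT neutrophil 2 or 4 or WT macrophage 1 or 3 (adjusted p = 0.0972, 0.0782, 0.114 and 0.0913) and under median centring. Inflammasome genes, whose products process the family, lay on both sides. Casp1 (-1.62), Pycard (the adaptor ASC, -1.18), Nlrc4 (-2.49), Naip5 (-0.99) and the substrate Il18 (-2.55) were lower, and the sensors Nlrp3 (2.74) and Aim2 (1.15) and the caspase Casp4 (1.17) were higher. Nlrp3, Aim2 and Casp4 were added here after their values were seen, and the Naip5 call was lost without WT neutrophil 1 or WT macrophage 1 (adjusted p = 0.0806 and 0.0786) and under quantile normalization. Il18 was 10.30, 10.95, 11.53 and 10.31 in WT neutrophils 1 to 4 and 13.50, 13.40 and 13.05 in WT macrophages 1 to 3, with no overlap.

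Among other cytokines and growth factors, 9 of 20 were higher and 2 lower. Csf1, the growth factor of macrophages and microglia, was 15.78, 15.47, 14.37 and 14.66 in WT neutrophils 1 to 4 and 8.41, 9.35 and 8.14 in WT macrophages 1 to 3. Neutrophils were above macrophages by 6.43 ± 0.47 (adjusted p = 1.39e-11) and near the mean of the WT microglia, 14.73 ± 0.45 (SD, n = 6). Il23a, the specific subunit of interleukin-23, was 9.71, 12.87, 11.69 and 11.60 in WT neutrophils 1 to 4 and 5.35, 5.85 and 5.79 in WT macrophages 1 to 3, a difference of 5.81 ± 0.68 (adjusted p = 9.74e-08) with WT neutrophil 1 the lowest of its group. Ltb, lymphotoxin beta, was 11.45, 11.62, 10.28 and 10.48 in WT neutrophils 1 to 4 and 6.04, 5.29 and 5.66 in WT macrophages 1 to 3, a difference of 5.29 ± 0.36 (adjusted p = 3.1e-12). Tnf was called at 2.29 (adjusted p = 0.0128), a call lost without WT macrophage 1 (adjusted p = 0.0773). The cytokines called lower were Tgfb1 (-2.42) and Il10 (-1.87), both known to restrain inflammation, and Osm (-0.81 ± 0.37), Igf1 (0.94 ± 0.79) and Vegfa (-0.77 ± 0.38) were not called.

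Sensors of microbial and damage signals fell on both sides. Of 25 measured members 9 were called higher and 7 lower in neutrophils, with a median difference of 0.36. Tlr9, the endosomal receptor for CpG DNA, was 6.85, 6.78, 5.87 and 6.16 in WT neutrophils 1 to 4 and 12.42, 11.67 and 11.18 in WT macrophages 1 to 3, lower in neutrophils by a difference of -5.34 ± 0.44 (adjusted p = 1.14e-10). Tlr5 (-3.10), the flagellin receptor, and Tlr3 (-1.81), the sensor of double-stranded RNA, were lower too. Tlr4 (1.65), the lipopolysaccharide receptor, its co-receptor Cd14 (2.44), Tlr6 (2.03), the signalling kinase Syk (2.03) and the fungal and damage lectins Clec4d (1.60) and Clec4e (1.26) were higher. Of 7 Fc receptors 3 were lower, including Fcgr2b (-2.95), the inhibitory IgG receptor, and 1 higher, Fcgr3 (0.49), whose call was lost under median centring (adjusted p = 0.167). Fcgr4 (0.60 ± 0.28) was not called.

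**Figure D3:**
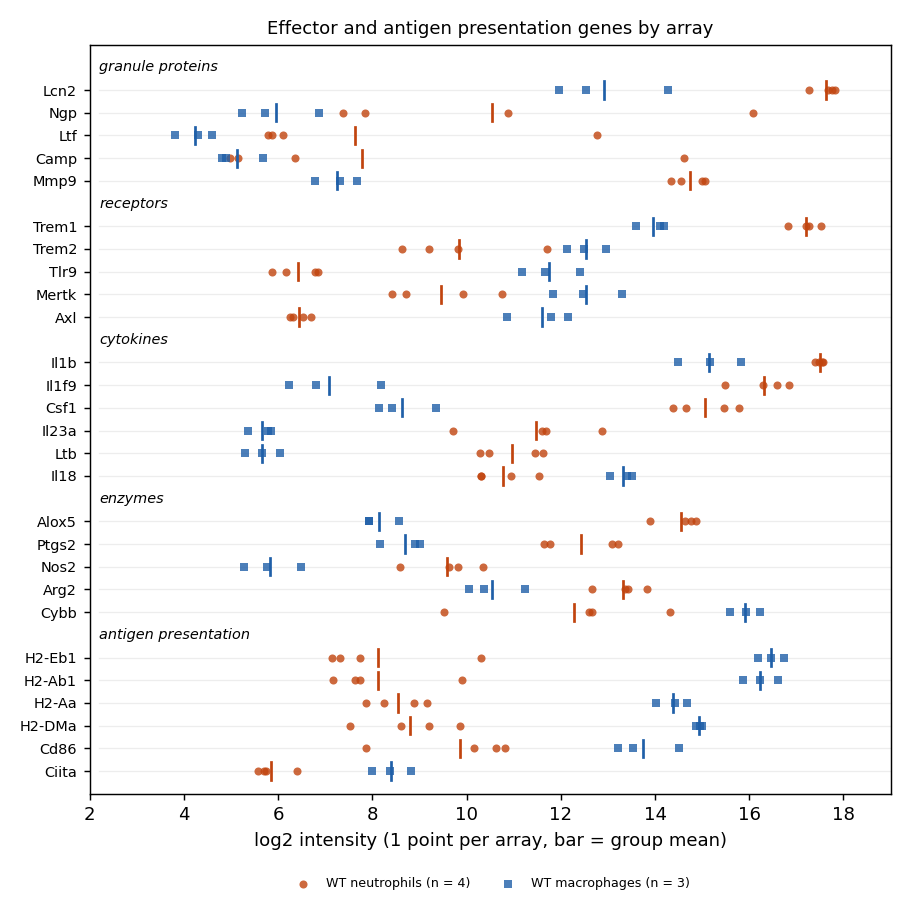
Log2 intensity of effector, receptor and antigen presentation genes in each WT neutrophil array (circles) and WT macrophage array (squares), with group means as bars. Camp, Ltf and Ngp are high in WT neutrophil 2, Il1b and Lcn2 are tight among neutrophils, and the MHC class II genes H2-Eb1, H2-Ab1 and H2-Aa lie far higher in macrophages.

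Adhesion molecules were lower more often than higher. Of 19 measured members 2 were called higher and 9 lower in neutrophils, with a median difference of -0.66. Itgax (CD11c, -3.55) and Itga4 (the alpha chain of VLA-4, which monocytes use to leave vessels, -2.55) were lower. Itgb7 (-2.30), a beta chain that pairs with Itga4 in an integrin other than VLA-4, was lower too. Itgal (the alpha chain of LFA-1, 0.28 ± 0.27) was not called, and Selplg (1.68), the P-selectin ligand, was higher.

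Genes for oxygen and nitrogen radicals did not move together. In the list of oxidase and antioxidant genes 4 of 19 were higher and 4 lower. Nos2, the inducible nitric oxide synthase, was 8.58, 10.35, 9.81 and 9.63 in WT neutrophils 1 to 4 and 5.28, 6.47 and 5.75 in WT macrophages 1 to 3. Its groups did not overlap, at 3.75 ± 0.43 (adjusted p = 5.35e-08). Rac2 (1.56), the small GTPase of the oxidase, was higher, Cyba (-0.51) and Cybb were lower as above, and Cat (catalase, -0.55 ± 0.38) was not called. Of the arginases Arg2 (2.77) was higher in neutrophils and Arg1 (-0.45 ± 0.79) was not called, and the polyamine enzymes Odc1 (-1.56) and Srm (-2.71) were lower. Leukotriene and prostaglandin genes included Alox5, the first enzyme of leukotriene synthesis, at 14.63, 14.86, 14.77 and 13.90 in WT neutrophils 1 to 4 and 7.92, 8.57 and 7.93 in WT macrophages 1 to 3. Alox5 was higher by 6.40 ± 0.57 (adjusted p = 6.07e-10), and Ptgs2 (3.74), cyclooxygenase-2, was higher too. The thromboxane and prostaglandin D synthases Tbxas1 (-3.18) and Hpgds (-1.79) were lower, within counts of 3 higher and 4 lower of 14.

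Proteases acting on matrix lay on both sides, with 7 of 19 higher and 5 lower. Beside Mmp9 the secreted collagenase Mmp8 (2.61) and the membrane protease Adam19 (6.76) were higher. Mmp14 (-3.86), the membrane-bound collagenase of macrophages, the urokinase gene Plau (-2.82) and the inhibitor Timp1 (-2.83) were lower, and Mmp12 (-1.0 ± 1.0), macrophage elastase, was not called. Of 17 heme and iron genes 6 were higher and 2 lower. Steap4, a metalloreductase, was 11.96, 13.94, 13.87 and 11.93 in WT neutrophils 1 to 4 and 5.86, 5.73 and 6.04 in WT macrophages 1 to 3, a difference of 7.05 ± 0.42 (adjusted p = 1.3e-13). Slc40a1 (4.0), the iron exporter ferroportin, was higher, Blvra (-2.72), biliverdin reductase, was lower, and Hmox1 (0.64 ± 0.47), heme oxygenase-1, was not called.

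Siglecf, a sialic acid receptor best known from eosinophils and alveolar macrophages, was 12.86, 13.39, 12.92 and 11.43 in WT neutrophils 1 to 4 and 5.70, 5.44 and 5.68 in WT macrophages 1 to 3. All neutrophil arrays lay above all macrophage arrays, by 7.05 ± 0.55 (adjusted p = 3.81e-11). Of 12 eosinophil, basophil and mast cell genes 3 were higher, Siglecf included, and 1 lower (3 higher and 3 lower under median centring). Mcpt8 (-0.21 ± 0.19) and Cpa3 (0.33 ± 0.23) were not called, and Prg2 stood at 4.81, 4.61, 5.48 and 5.20 in WT neutrophils 1 to 4, below the median cluster level.

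Lineage transcription factors lay on both sides. Of 28 measured members 8 were called higher and 11 lower in neutrophils, with a median difference of -0.28. Cebpd (2.59) and Mxd1 (4.08), which rise late in granulocyte maturation, were higher, and so was Cebpe (1.58), though below the median cluster level. Spi1 (0.83), which encodes PU.1, was higher by less than 1 unit. Irf8, which directs progenitors to monocytes, was 8.20, 7.79, 6.57 and 7.51 in WT neutrophils 1 to 4 and 9.78, 11.20 and 10.82 in WT macrophages 1 to 3, lower by a difference of -3.08 ± 0.35 (adjusted p = 4.17e-08). Klf4 (-4.36), Runx3 (-5.55) and Nr1h3 (-4.73), the oxysterol receptor LXR alpha, were lower, and Gfi1 (0.31 ± 0.24), a repressor of early granulocyte genes, was not called.

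Antigen presentation on MHC class II was lower in neutrophils almost throughout. Of 15 measured genes 13 were called lower and 0 higher, with a median of -3.89. H2-Eb1, a beta chain of the molecule, was 7.14, 7.32, 10.31 and 7.74 in WT neutrophils 1 to 4 and 16.45, 16.19 and 16.73 in WT macrophages 1 to 3, the lowest difference of the comparison at -8.33 ± 0.66, 322-fold (adjusted p = 6.28e-11). H2-Ab1, the other beta chain, was 7.64, 7.17, 9.90 and 7.74 in WT neutrophils 1 to 4 and 16.23, 15.86 and 16.61 in WT macrophages 1 to 3, and WT neutrophil 3 was the highest neutrophil array for both. H2-Aa (-5.84), the alpha chain, and the peptide loaders H2-DMa (-6.14) and H2-DMb1 (-6.61) were lower by similar amounts. Ciita, the master activator of these genes, was 5.57, 5.71, 5.75 and 6.39 in WT neutrophils 1 to 4 and 8.83, 7.99 and 8.38 in WT macrophages 1 to 3, a difference of -2.54 ± 0.23 (adjusted p = 9.34e-10). Cd86, a co-stimulator of T cells, was 10.81, 10.62, 10.15 and 7.87 in WT neutrophils 1 to 4 and 14.51, 13.52 and 13.22 in WT macrophages 1 to 3, and Ifi30 (-2.98), the lysosomal thiol reductase that prepares antigens, was lower too. Of the other genes with the lowest differences, Klrb1b (-6.73) and Clec4a3 (-5.53) encode lectin-like receptors, Pld4 (-5.93) a lysosomal nuclease, Kcnn4 (-6.62) a calcium-activated potassium channel, Sulf2 (-6.13) an extracellular sulfatase and Tifab (-6.42) a regulator of TRAF6 signalling.

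Genes for the uptake of dead cells were called lower at 11 of 20 and higher at 0, with a median of -0.97. Axl, a receptor tyrosine kinase that binds apoptotic cells through GAS6, was 6.69, 6.53, 6.31 and 6.25 in WT neutrophils 1 to 4 and 11.78, 10.85 and 12.16 in WT macrophages 1 to 3. The neutrophil arrays were near the median cluster level and the macrophage arrays well above it, a difference of -5.15 ± 0.50 (adjusted p = 2.75e-09). Mertk, its relative, was 10.76, 9.93, 8.43 and 8.71 in WT neutrophils 1 to 4 and 11.84, 13.30 and 12.47 in WT macrophages 1 to 3, a difference of -3.08 ± 0.41. Msr1 (-2.64), a scavenger receptor, and Lrp1 (-2.28), a large endocytic receptor, were lower, and Mfge8 (0.78 ± 0.34), a bridging protein, was not called. Complement genes were mixed, with 5 of 16 lower and 4 higher (1 higher and 7 lower under median centring). Cfb (-3.93), factor B of the alternative pathway, and C1qb (-2.74) were lower, C1qc (-1.49) lost its call without WT neutrophil 2 or 4 or WT macrophage 2 or 3, C1qa (-1.16 ± 0.54) was not called, and C5ar2 (1.60) was higher.

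Lysosomal genes were lower at 13 of 25 and higher at 1, with a median of -0.90. Ctsc (-2.84), Ctsh (-1.79) and Npc2 (-2.29), which carries cholesterol out of lysosomes, were among them, Lamp1 (-0.90) was lower by less than 1 unit, Ctsb (-0.05 ± 0.17) was not called and Scarb2 (1.17), a lysosomal membrane protein, was the exception. Leaving out WT neutrophil 4 gave 12 lower and 3 higher. Lipid genes followed, with 8 of 16 lower and 1 higher, among them Pltp (-2.59), the phospholipid transfer protein, and Sqle (-2.22), an enzyme of cholesterol synthesis, beside Apoe and Nr1h3.

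Most genes for mitochondria and protein synthesis were lower in neutrophils, with median differences from -1.19 to -1.86 over these lists. In the respiratory chain and ATP synthase 30 of 34 genes were lower and 0 higher, with a median of -1.19. Ndufs3, a core subunit of complex I, was 14.75, 13.72, 14.04 and 13.86 in WT neutrophils 1 to 4 and 15.53, 15.91 and 15.75 in WT macrophages 1 to 3, a difference of -1.64 ± 0.19 (adjusted p = 1.15e-07), and Sdhb (-1.31), Cox5a (-1.15) and Cycs (-0.58) were lower by smaller amounts. The Cycs call was lost under quantile normalization over all arrays (-0.27, adjusted p = 0.204). In the citrate cycle and fatty acid oxidation 15 of 21 were lower and 1 higher, with a median of -1.86. Idh2, the mitochondrial isocitrate dehydrogenase, was 11.58, 10.70, 10.24 and 8.88 in WT neutrophils 1 to 4 and 12.27, 13.76 and 13.88 in WT macrophages 1 to 3, and Cs (-2.04), citrate synthase, and Mdh1 (-2.24), malate dehydrogenase, were lower too. The exception was Dlst (0.51), a subunit of the oxoglutarate dehydrogenase, whose call was lost under median centring (adjusted p = 0.216) and without WT macrophage 2 (adjusted p = 0.0746).

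Cytosolic ribosomal proteins were lower at 23 of 25 and higher at 0, with a median of -1.29. Rplp0, of the ribosomal stalk, was 7.53, 7.24, 7.01 and 7.22 in WT neutrophils 1 to 4 and 10.40, 11.07 and 10.62 in WT macrophages 1 to 3. All neutrophil arrays lay below all macrophage arrays, a difference of -3.45 ± 0.44 (adjusted p = 4.49e-07), and Rps19 (-2.84), Rpl3 (-1.86) and Rps6 (-0.86) differed in the same direction. Translation factors and chaperones were lower at 21 of 23 and higher at 0. Eef2, the elongation factor, was 9.29, 9.34, 8.85 and 8.04 in WT neutrophils 1 to 4 and 11.73, 10.12 and 10.93 in WT macrophages 1 to 3, and Calr (-2.05), the chaperone calreticulin, Eif4a1 (-1.75) and Npm1 (-1.18), a nucleolar protein, were lower too. These lists held bright genes of the kind that all nucleated cells express. Broadly bright clusters also read low in the neutrophil arrays, as given above, but they were chosen as bright in macrophage and microglia arrays. The part of such low readings in these counts was not tested.

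Glycolysis genes were split, with 7 of 24 higher, 7 lower and a median of -0.014 that turned positive under quantile normalization. Slc2a3, a high-affinity glucose transporter, was 7.79, 8.79, 5.68 and 5.20 in WT neutrophils 1 to 4 and 4.0, 3.82 and 5.18 in WT macrophages 1 to 3, a difference of 2.53 ± 0.59 (adjusted p = 0.000855). Pfkfb3 (2.41), which drives phosphofructokinase, Hk3 (1.65), a hexokinase of myeloid cells, and Egln3 (4.60), an oxygen-sensing prolyl hydroxylase, were higher. Hk2 (-1.96), Pfkp (-2.69), Tpi1 (-1.51) and Ldha (-0.74), other steps of the same pathway, were lower, as was Hif1a (-0.87), the hypoxia factor. The Ldha call was lost under quantile normalization over all arrays (-0.20, adjusted p = 0.479).

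Interferon-induced genes were lower at 9 of 21 and higher at 3. The antiviral genes Mx2 (-2.69) and Oas1a (-2.46) and the restriction factor Ifitm3 (-1.01) were lower, and Slfn4 (4.27), Slfn1 (2.04) and Ifitm1 (1.14) were higher, whereas Isg15 (0.38 ± 0.43) was not called. Survival genes were higher at 6 of 18 and lower at 3. Mcl1 (1.19), on which neutrophil survival depends, Bcl2l1 (Bcl-xL, 2.43) and the death receptor Fas (2.68) were higher, and Bcl2 (-3.03) and Casp8 (-2.04) were lower. Of 25 genes of cell division 2 were higher and 5 lower. Pcna (-1.18) and Mcm6 (-1.96), of DNA replication, were lower, Aurka (1.03), a mitotic kinase, and Hmgb2 (2.73), a chromatin protein, were higher, and Mki67 (0.77 ± 0.47) and Cdk1 (-0.45 ± 0.55) were not called.

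**Figure D4:**
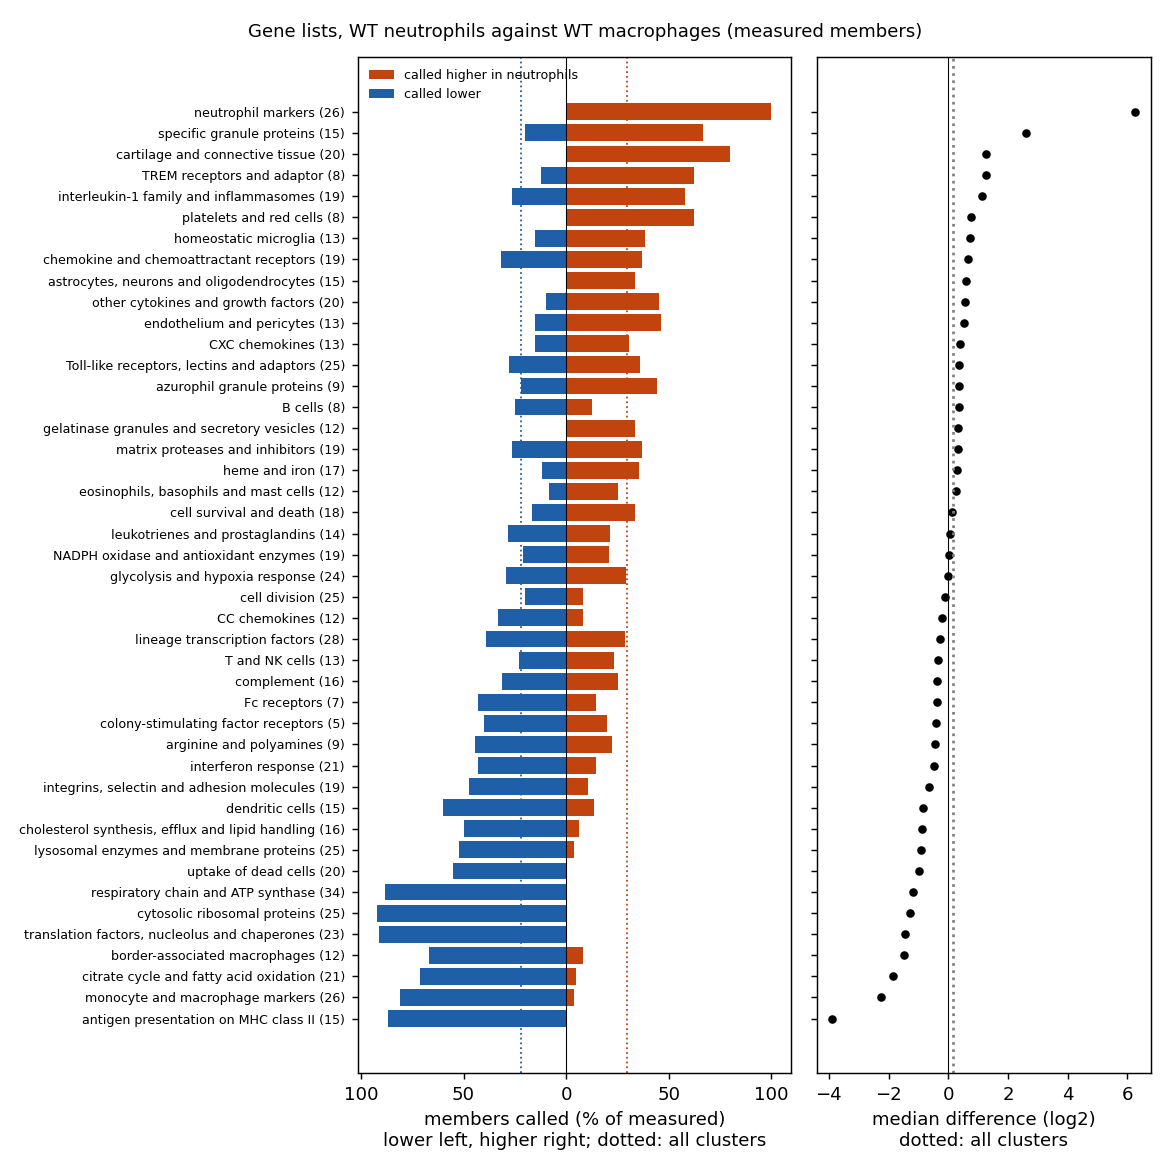
Left, the share of measured members of each gene list called higher (to the right) or lower (to the left) in WT neutrophils, with the shares over all clusters (29.6% and 22%) dotted. Right, the median difference of each list in log2 units, from 6.27 for neutrophil markers to -3.89 for antigen presentation on MHC class II, with the median of all clusters (0.17) dotted.

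The same contrast was made in the arrays labelled TREM1-/-. Their levels do not enter the wild-type differences, but the model shares 1 estimate of spread over all 6 groups, so they bear on the wild-type p-values. Trem1 itself ranged from 15.12 to 16.39 in the 5 KO neutrophil arrays, below every WT neutrophil array, and from 12.81 to 14.39 in the 6 KO macrophage arrays, which overlapped the WT macrophages, so its transcript was not absent in the arrays labelled KO. Where the probes lie with respect to the deleted part is not given in the sources used here. The KO contrast gave 3513 higher and 3495 lower calls, 31.7% of all clusters. Of the wild-type higher calls 2960 were also called higher there, which is 45.2% of the wild-type calls and 84.3% of those in KO. Of the lower calls 2490 were shared, 51.3% and 71.2% of each set, and 15 higher and 12 lower calls were called in the opposite direction there. The sign of the difference was the same at 90.1% of the higher and 93% of the lower calls. For Retnlg the difference in KO was 8.59, for S100a9 8.89, for Cxcr2 7.85, for Ccr2 -4.62 and for H2-Eb1 -7.71.

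The size of the difference between cell types itself differed between genotypes at 1518 clusters by the interaction term (6.87%), of which 1445 were among the wild-type calls. It was positive at 555 and negative at 963. The neutrophil arrays also differed with genotype. Of the 2015 broadly bright clusters, 5, 7, 5, 8 and 24 lay more than 3 log2 units lower in KO neutrophils 1 to 5. In WT neutrophils 1 to 4 these counts were 20, 89, 109 and 204. The mean correlation within the group was 0.974 to 0.985 for KO and 0.933 to 0.962 for WT neutrophils. The part of this in the interactions was not tested. Mertk differed by -3.08 in WT and 0.047 in KO, an interaction of -3.13 (adjusted p = 0.00192). Trem2 differed by -2.68 and -0.025 (interaction -2.66, adjusted p = 0.00299), and Nr1h3 by -4.73 and -2.31 (interaction -2.42, adjusted p = 0.00806). In these genes the macrophage means were 12.54, 12.53 and 11.25 in WT and 12.54, 12.90 and 11.77 in KO, and the KO neutrophil means were 12.59, 12.87 and 9.46. Cytl1 differed by 7.0 in WT and by -1.51 in KO (interaction 8.50, adjusted p = 0.00526), and the KO difference was not called (adjusted p = 0.304). Dcn and Lum were likewise at -1.49 and -1.11 in KO, not called (adjusted p = 0.204 and 0.351), whereas Sparc was at 1.10 (adjusted p = 0.283). For Acan the interaction was 2.69 and did not pass (adjusted p = 0.0615). For Trem1 the interaction was 0.73 (adjusted p = 0.455), which did not pass. Leaving out WT neutrophil 1 raised the number of clusters with an interaction to 2790, and leaving out WT macrophage 3 lowered it to 786.

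**Figure D5:**
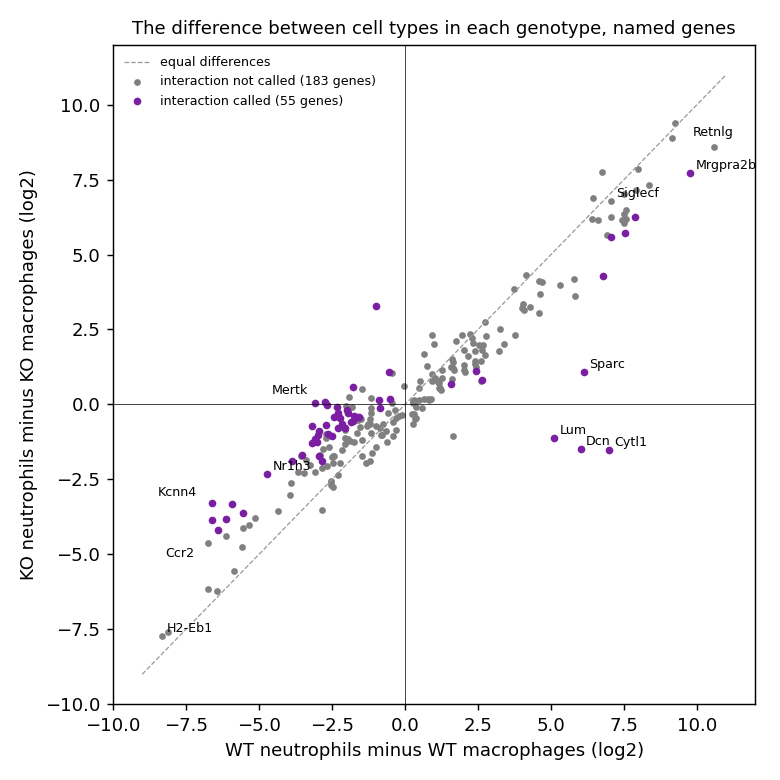
Difference between neutrophils and macrophages in KO mice (5 and 6 arrays) against the same difference in WT mice (4 and 3 arrays) for the named genes, in log2 units. H2-Eb1 lies near the dashed line of equal differences (-8.33 in WT and -7.71 in KO), Retnlg lies off it without an interaction call (10.58 and 8.59), Kcnn4 is among the genes with a call, and Cytl1, Dcn and Lum, which are positive in WT, lie below 0 in KO.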

How the data were processed

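RNA of sorted cells was hybridised to Clariom mouse arrays. The deposited intensities are linear values of 22103 transcript clusters, which the authors made with RMA per the submitters' processing notes; its version and genome build are not given in the sources used here. RMA corrects background, normalizes quantiles and summarises probes, so differences are relative within these arrays, and dim clusters are compressed. All 30 array columns matched a sample (0 unmapped).

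Log2 intensities were fitted in limma 3.58.1 (R 4.3.3) with 6 groups of genotype and cell type, sharing 1 estimate of spread, and moderated contrasts were adjusted by Benjamini-Hochberg over all clusters. The interaction is the WT minus the KO contrast. The procedure was tested on simulated data. Figures were drawn in Python 3.11.15 with matplotlib 3.10.9.

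Named genes were drawn from clusters with 1 symbol (the brightest of a gene). They were the 15 highest and 15 lowest called differences with the brighter group mean at or above the median, Trem1 and the sort antigens. From each list, genes were taken from its key members, up to 3 with the smallest p each way and those called against the list's median. Not every such member was named. Key members left out include Cxcl1, Tlr2, Cd36 and Top2a, which were not called, and Sall1 and Snap25, which were called higher. The share called among named genes therefore does not describe the lists. Predicted gene models outside the lists were left out. The members and lists were chosen with earlier results of these data known. Genes without a cluster of a single symbol were not used here. Promoters of 300 bases came from RefSeq. Alternatives changed the normalization, centring, arrays fitted, weights, prior, dim filter (the lowest 25%), clusters per gene and replicate block, and left out each WT array. The number of mice behind each array is not given.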

Additional observations from a re-analysis of the deposited data

Results flagged for a closer look

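WT neutrophil values were examined for an array that stood far from the other 3 of its group, over 287 genes and summaries, of which 18 met the rule. Chance gives about 1 in 20, so the count is close to what chance gives. The single values below are therefore descriptions only. WT neutrophil 4 stood apart most often. Its mean correlation with its group was 0.933, against 0.959 to 0.962 for the others. Its list mean was 11.46 for monocyte and macrophage markers (others 11.97 to 12.05), 8.95 for border-associated macrophage genes (others 9.33 to 9.40) and 11.07 for chemokine and chemoattractant receptors (others 11.54 to 11.60). The same array was high for Acan (12.56 against 7.71 to 7.89), Fn1 (16.63 against 14.69 to 14.84), Mfge8 (8.99 against 7.08 to 7.20) and Tgfb1 (11.91 against 11.56 to 11.60). It was low for Adgre1 (9.0 against 10.51 to 10.55) and Slc40a1 (9.33 against 10.96 to 11.24).

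WT neutrophil 1 was high for the complement genes C1qa (15.47 against 12.81 to 13.23) and C1qb (13.80 against 10.34 to 10.58), for the microglial and monocyte receptor Cx3cr1 (9.82 against 7.59 to 7.80) and for the mitotic kinase Cdk1 (6.99 against 5.02 to 5.13). WT neutrophil 2 was high for Camp (14.61 against 4.97 to 6.35), Ltf (12.76 against 5.79 to 6.10) and Tlr4 (11.34 against 10.81 to 10.87). WT neutrophil 3 was low for Odc1 (8.96 against 9.97 to 10.17).

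The difference between neutrophils and macrophages itself differed between WT and KO, by the interaction term of the limma fit (adjusted p under 0.05), at 55 of the 238 named genes (23.1%), against 6.87% of all clusters, and many of the named genes were chosen for a difference in the WT arrays that the term also uses. The values that follow are the WT difference minus the KO difference, so a negative value means that neutrophils lay further below macrophages, or less far above them, in WT than in KO. The WT neutrophil arrays mostly read more broadly bright clusters low than the KO ones, as given above. The part of this in these values was not tested. The largest positive values belonged to connective tissue genes: Cytl1 (8.50), Dcn (7.50), Lum (6.23) and Sparc (5.03). Among antigen presentation genes they were H2-DMb1 (-2.76), H2-DMa (-2.31) and Ifi30 (-1.96). Among receptors and lectins of uptake and immune recognition they were Mertk (-3.13), Trem2 (-2.66), Clec4a3 (-1.92), Lrp1 (-1.99), Fcgr1 (-1.87), Msr1 (-1.64) and Fcgr2b (-1.24). Among complement, chemoattractant and cytokine genes lower in WT neutrophils they were C1qb (-2.84), Cxcl16 (-2.02), Cmklr1 (-1.82), C3ar1 (-1.82) and Il3ra (-1.46). Among lysosomal and lipid genes they were Pld4 (-2.62), Nr1h3 (-2.42), Apoe (-2.23), Npc2 (-1.51), Ctsh (-1.24), Lyz2 (-1.17) and Lamp1 (-1.06). Among matrix proteases they were Mmp12 (-4.27), Mmp14 (-1.99) and Adam19 (2.47). Among metabolic and redox enzymes they were Tbxas1 (-2.47), Hpgds (-2.36), Idh2 (-2.05), Blvra (-2.03), Mdh1 (-1.79), Cat (-1.62), Ndufs3 (-1.21) and Cyba (-0.69). Among genes of protein synthesis and DNA replication they were Mcm6 (-1.69), Eif4a1 (-1.36), Calr (-1.28), Rpl3 (-1.26), Rps19 (-0.96) and Rps6 (-0.75). Other genes with such a difference were the macrophage genes Adgre1 (-1.52) and Irf8 (-1.92), the channel Kcnn4 (-3.34), the signalling gene Tifab (-2.23) and the survival gene Bcl2 (-1.79). Among genes higher in WT neutrophils they were Mrgpra2b (2.04), Il1rn (1.82), Nlrp12 (1.82), St3gal6 (1.65), Stfa1 (1.44), Cd14 (1.31) and Rac2 (0.89).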

How the results depend on the processing

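The alternatives were 9 other ways of scaling or fitting the arrays and 7 fits that each left out 1 WT array. Of the 202 named genes that were called, 160 stayed called in the same direction under all 16, and 42 lost the call under at least 1, most often where the arrays were quantile normalized and fitted alone. Of the 36 not called, 19 passed under at least 1. Quantile normalization with a fit on the 7 arrays gave 2437 higher and 2538 lower calls, 1778 and 1993 of them by 2-fold or more. The 7 arrays alone, without it, gave 3948 higher and 3351 lower calls. These fits hold fewer arrays to estimate the spread and leave out the other groups, whose spread the main fit pools. The part of each was not tested. Centring each array on its median gave 3938 higher calls, 1591 of them by 2-fold or more, and lowered the higher share of the calls from 57.4% to 38.7%. Array weights gave 915 clusters with an interaction. A shared sign without a threshold in KO held for 10418 wild-type calls, against 5450 with one.

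Leaving out 1 array gave 5471 to 6684 higher calls, 4223 to 4870 lower calls, 2418 to 3168 higher and 3325 to 3777 lower by 2-fold or more, 4942 to 5717 calls shared with KO and 786 to 2790 clusters with an interaction, the highest without WT neutrophil 1 and the lowest without WT macrophage 3. With the replicate number as a block there were 5610 higher and 4492 lower calls and 486 interactions. Nothing in the titles says that arrays with the same number come from the same mouse. The correlations of the deviations of same-numbered arrays were -0.155, -0.0976 and -0.052, against -0.104 to 0.172 for different numbers. So few correlations cannot show whether the numbers pair the arrays. The cause of the changes in these counts of calls was not tested.

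Among named genes that were not called, the sign turned under quantile normalization over all arrays and over the 7 arrays for Csf2ra (0.057 and 0.058), Ms4a1 (-0.033 in both) and Zbtb46 (-0.082 and -0.081), and under median centring for Itgam (-0.017) and Zbtb46 (-0.0016). When 1 array was left out, differences ranged from -0.66 to 0.041 for Csf2ra, -1.09 to 0.010 for Cdk1, -0.22 to 0.087 for Ctsb and -0.39 to 0.077 for Elane. Of the called genes Gzma turned its sign, ranging from -3.08 to 0.19, the latter without WT macrophage 1, and no other named called gene did so under these alternatives. Signal over background is not given per cluster, so dim levels are bounds, and precision is set by having 4 and 3 arrays.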
